A study of Homo sapiens with 4 samples.

Results

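The 10 genes described here act in protein folding and degradation in the endoplasmic reticulum (ER) and were chosen by symbol: XBP1, HSPA5, HSP90B1, DNAJB9, DNAJC3, SDF2L1, HERPUD1, PDIA4, ERO1A and SEL1L. The rule that picks them uses no measured value, but it was written with earlier results of these data known. Of the 10, 9 had exactly 1 row in a count table of 14540 rows, each row being a RefSeq mRNA accession, and all 9 passed the filter on low counts and were tested. HERPUD1 was not analysed here. The libraries came from a human line of hepatocellular carcinoma, PLC/PRF/5, and numbered 2 control (PLC-NC) and 2 with lentiviral knockdown of USP22 (PLC-shUSP22). USP22 is a deubiquitinase of the SAGA coactivator complex. Control and knockdown cells alike were grown in high-glucose medium and then spent 48 h in hypoxia, in a gas mixture with 1% oxygen and 5% carbon dioxide. Cells with and without the knockdown were therefore compared in hypoxia alone, and normoxic cells were not analysed here. The labels do not say how many hairpin sequences or clones were used, what the control virus carried, or whether the replicates were separate cultures, so p-values measure the spread between these libraries, which may be technical.

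Secreted and membrane proteins fold in the ER, where chaperones hold unfolded chains and oxidases and isomerases make and reshuffle disulfide bonds. When unfolded chains build up, the sensors IRE1, PERK and ATF6 start the unfolded protein response, which raises transcription of chaperones and of the machinery that sends misfolded chains to the proteasome (ER-associated degradation). IRE1 acts by cutting a short intron out of the XBP1 mRNA in the cytoplasm. Hepatocytes secrete most plasma proteins and depend on this system. ERO1A is also a known target of hypoxia-inducible factors.

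The XBP1 sequence that IRE1 cuts is shown because it separates the accession that was counted from the other XBP1 accession of that period. The counted row, NM_005080.3, is the form that keeps the intron. The GENCODE model linked to the other accession lacks 26 bases, in capitals here with 20 coding bases on either side. The flanks repeat, so the cut could be placed at 7 neighbouring positions with the same product, and the position known for IRE1 is the one shown.
XBP1 intron: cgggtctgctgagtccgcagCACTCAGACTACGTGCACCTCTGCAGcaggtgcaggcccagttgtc

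Short promoter stretches are shown because they hold the letters by which ER stress genes are usually recognised. Promoter windows of 300 bases (250 before and 50 after the start site) were taken from RefSeq on GRCh38.p14. This is not the build of the counts. All 10 genes had at least 1 window, and XBP1 and PDIA4 had 2 each. A gene is counted if any of its windows matched, while percentages are shares of single windows, so the 2 are not in like units. The ER stress response element begins with CCAAT. After a gap of 9 bases it closes with the letters CCACG. It was searched on both strands and is in capitals. It occurred in 27 of 35116 windows (0.0769%), and among the 10 genes in those of XBP1, HSPA5 and HSP90B1. The HSP90B1 window held it on both strands, and the stretch with the element on the opposite strand is the last of the 4 below. The stretches lie at chr22:28800598-28800626 (minus strand, XBP1), chr9:125241386-125241414 (minus strand, HSPA5), chr12:103930211-103930239 and chr12:103930316-103930344 (plus strand, HSP90B1).
XBP1: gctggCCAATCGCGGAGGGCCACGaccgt
HSPA5: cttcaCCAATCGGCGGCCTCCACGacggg
HSP90B1, farther from the start site: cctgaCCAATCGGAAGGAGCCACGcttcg
HSP90B1, nearer to the start site: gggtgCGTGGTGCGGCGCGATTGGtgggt

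A shorter relative of the element begins with ATTGG and, past a gap of 1 base, closes with the same letters. It occurred in 19 of the 35116 windows (0.0541%), among them those of SDF2L1 and HERPUD1. The core of the XBP1 and ATF6 element, TGACGTG, was in 692 windows (1.97%) and in none of the 10 genes' windows, which says only that these letters are absent there. The hypoxia response element has a core of 5 bases in 2 forms. The form ACGTG, also part of the element above, was in 21.4% of all windows and in those of 7 of the 10 genes. The form that starts with G, GCGTG, can overlap the end of an ER stress element and was in 36.5% of all windows and in those of 5 of the 10 genes. ERO1A had both forms upstream of its start site, as did XBP1 and HSP90B1. DNAJB9 had the palindrome CACGTG at 2 places, and HSP90B1 and HERPUD1 also held it, so neither trait is particular to the gene shown. The SDF2L1 stretch lies at chr22:21642109-21642129 (plus strand), the DNAJB9 stretches at chr7:108569796-108569811 and chr7:108569820-108569835 (plus strand), and the ERO1A stretches at chr14:52695719-52695733 and chr14:52695663-52695677 (minus strand). The matched letters are in capitals, and a match describes the sequence only.
SDF2L1: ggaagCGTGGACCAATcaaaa
DNAJB9, farther from the start site: ttttcCACGTGcgcgt
DNAJB9, nearer to the start site: gggatCACGTGgggag
ERO1A, GCGTG on the opposite strand: agcctCACGCggcgg
ERO1A, ACGTG on the opposite strand: cgcggCACGTccaca

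Library totals lay between 15027209 and 17194929 counts. USP22 itself was counted 46513 and 41607 times in control and 5438 and 7683 times in knockdown libraries, the direction its labels give. Of 11 markers of liver cells and hepatoma, all had counts in every library. Their summed level was 27187 to 30292 CPM (counts scaled to a library of 1000000, here without normalization factors) in control and 35101 to 45038 CPM in knockdown libraries. The sum was higher in knockdown through APOB, an apolipoprotein. Without it the sums were 18504 and 18585 CPM in control and 17333 and 18492 CPM in knockdown libraries. Of the 11, 4 rose (APOB, AFP, FGB and KRT18), none fell, and 5 had a log2 fold change below 0. Tested markers of leukocytes (2 of 4) summed to 309.6 and 352.2 CPM in control and 386.8 and 221.3 CPM in knockdown, and those of fibroblasts and stellate cells (3 of 6) to between 19.0 and 27.8 CPM, with overlapping groups. Tested endothelial markers (2 of 4) summed to 29.7 and 23.1 CPM in knockdown against 17.7 and 10.8 CPM in control. The adhesion molecule PECAM1 made up most of this sum and rose (log2 fold change 1.02, edgeR adjusted p = 0.0185). The other tested endothelial marker, CDH5, went the other way without passing (log2 fold change −0.73, edgeR adjusted p = 0.505). What part these markers have in the results below was not tested. Of markers too low to be tested, VWF was at 0 in 1 knockdown library and COL1A2 at 0 in both.

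Between knockdown and control, ERO1A and DNAJB9 fell, XBP1 and SDF2L1 rose, and the other 5 measured genes did not pass an adjusted p of 0.05 in edgeR's quasi-likelihood test. The 4 that changed are 44.4% of the 9 measured genes. Over all 12337 tested rows the share was 18.7%, made up of 8.49% higher and 10.2% lower in knockdown. Among the 2983 rows counted at least as deeply as XBP1, the row with the lowest total of the 9, it was 28.8%. The median log2 fold change was −0.23 over the 9 genes and 0.00 over all tested rows. The groups did not overlap for 6 of the 9 genes, against 59.6% of all tested rows. The knockdown libraries lay below for 4 genes and above for 2, where 30.3% and 29.3% of all tested rows did so. By the q-values of the authors' deposited table, 5 of the 9 were under 0.05, against 22.1% of its 14540 rows. The libraries are of bulk RNA, so less RNA per cell and fewer cells with the RNA cannot be told apart. CPM below are per normalized library size. Standard errors (SE) were derived from the log2 fold change and F statistic of the edgeR test, and 95% intervals from these SE.

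**Figure D1:**
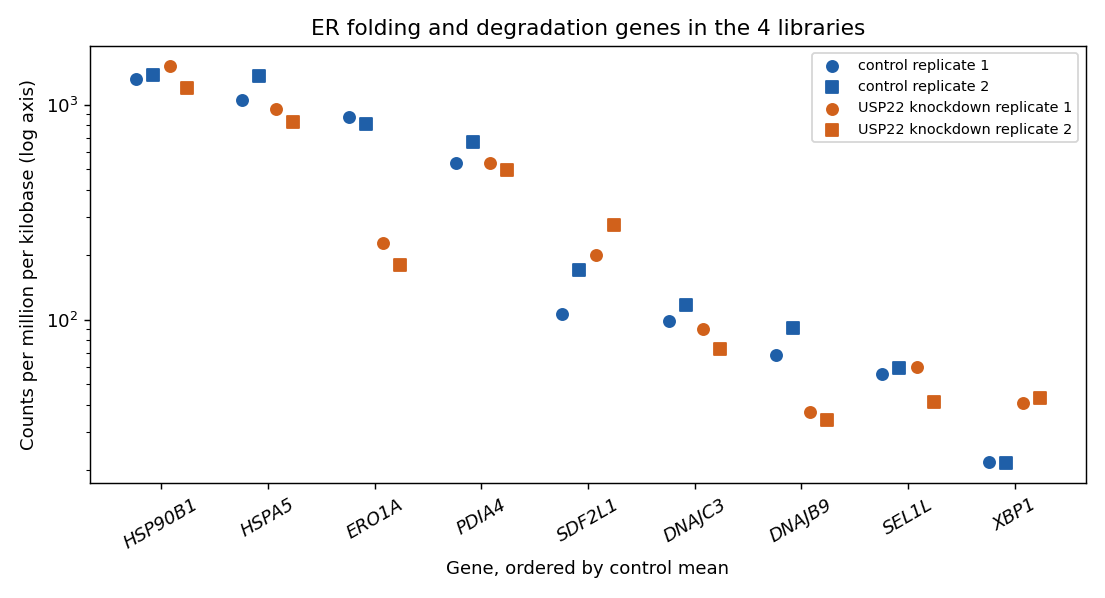
CPM per kilobase of transcript model (log axis) of the 9 measured genes in each library, ordered from the highest to the lowest control mean. Circles are replicate 1 and squares replicate 2 of control (blue) and USP22 knockdown (orange). ERO1A and DNAJB9 are lower and XBP1 and SDF2L1 higher in both knockdown libraries, while the HSP90B1 groups overlap.

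Levels of different genes can be set side by side only per length of transcript. Per kilobase, the control means were 1348 CPM for HSP90B1, 1205 for HSPA5, 844 for ERO1A, 603 for PDIA4 and 138 for SDF2L1. They were 108 for DNAJC3, 80.1 for DNAJB9, 57.6 for SEL1L and 21.6 for XBP1. In the control libraries HSP90B1, HSPA5, ERO1A and PDIA4 thus ranked 43, 47, 70 and 102 among the 11880 tested rows with a known length. Within a library, HSPA5 stood at 0.797 and 0.987 times HSP90B1 per length in control, so HSP90B1 was above it in both, by little in replicate 2. In knockdown ERO1A ranked 346, with a mean of 203 CPM per kilobase, beside 238 for SDF2L1. These genes exchanged places between the knockdown libraries, where SDF2L1 was at 0.881 and 1.53 times ERO1A per length, and are not ordered there. The XBP1 and SEL1L values may be understated, since each of these genes had 2 mRNA accessions in GENCODE release 29 and 1 row here, and reads shared by accessions may have been left uncounted. The other 7 measured genes had 1 accession in that release. On GRCh38.p14, RefSeq lists 14 mRNA accessions for ERO1A and 3 for PDIA4. The sources used here do not name the release behind the counts, so the same limit may hold for these genes.

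In oxidative folding, ERO1A had the largest change of the 9 measured genes. This oxidase, which recharges protein disulfide isomerases, was counted 73111 and 69567 times in control and 18137 and 16324 times in knockdown. In CPM these were 4616 and 4302 against 1199 and 951. The highest knockdown library lay 3.59-fold below the lowest control library. ERO1A fell by 2.05 on the log2 scale (SE 0.16, n = 2 per group, edgeR adjusted p = 5.18e-06), to 24.1% of control. Of all 12337 tested rows, ERO1A ranked 461 from the lowest log2 fold change. ERO1A overlaps exons of an antisense gene, AL133453.1, on the opposite strand. The library kit does not mark strand, and AL133453.1 was not analysed here.

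PDIA4 is a disulfide isomerase of the ER and a substrate of such oxidases. It had 1556 and 1947 CPM in control and 1558 and 1433 CPM in knockdown libraries. Control replicate 1 fell between the knockdown libraries, so the groups overlap. Its log2 fold change was −0.23 ± 0.16 (SE), with a 95% interval of −0.56 to 0.11 and an edgeR adjusted p = 0.346. The interval bounds the difference but does not show that PDIA4 was the same in both groups.

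Because both genes are measured in the same library, their ratio does not depend on the scaling of the libraries. Counts per base of ERO1A were 1.63 and 1.21 times those of PDIA4 in control and 0.423 and 0.364 times in knockdown. ERO1A was thus above PDIA4 in each control library and below it in each knockdown library. ERO1A alone took 0.468% and 0.421% of all counts in control and 0.121% and 0.0949% in knockdown. The 9 genes together took 1.56% and 1.67% against 1.22% and 1.02%. Without ERO1A these shares were 1.09% and 1.25% in control and 1.10% and 0.923% in knockdown libraries, and these ranges overlap. Counting error is small at this depth, since 95% Wilson intervals of the shares of ERO1A and of the 9 genes reached at most 0.0062 percentage points to either side, which covers counting error only.

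**Figure D2:**
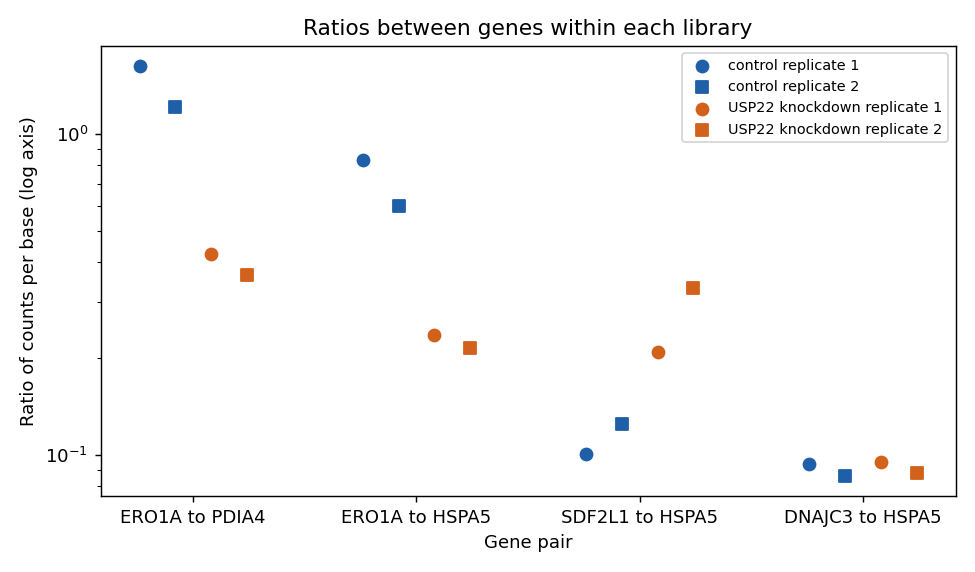
Ratios of counts per base of transcript model (log axis) for 4 gene pairs, chosen after their values were seen, within each library (circles replicate 1, squares replicate 2, blue control, orange USP22 knockdown). ERO1A falls against PDIA4 and HSPA5 in both knockdown libraries, SDF2L1 is higher against HSPA5, and DNAJC3 to HSPA5 stays between 0.0861 and 0.0949.

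The major chaperones did not pass the test. HSPA5, the HSP70 chaperone BiP that also holds the stress sensors inactive, had 4103 and 5317 CPM in control and 3741 and 3254 CPM in knockdown libraries. Both knockdown libraries lay below both control libraries, but the nearest libraries of the 2 groups differed 1.10-fold while the control libraries differed 1.30-fold from each other. On the log2 scale the difference was −0.43 ± 0.16 (SE), with an unadjusted p = 0.017 and an edgeR adjusted p = 0.0762. The authors' deposited table gives −0.41 and a q-value of 0.0272 for HSPA5, which is past the same threshold.

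The call for HSPA5 depended on the setting. Limma-voom gave an adjusted p = 0.0396, and over 10 alternatives the adjusted p ranged from 0.00102 to 0.568, with 4 of them past the threshold. Without control replicate 2 the log2 fold change was −0.21 (edgeR adjusted p = 0.568), and without control replicate 1 it was −0.60 (edgeR adjusted p = 0.0414).

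HSP90B1, the HSP90 chaperone of the ER (GRP94), had 3765 and 3941 CPM in control and 4328 and 3403 CPM in knockdown libraries. The control libraries lay between the knockdown libraries. Its log2 fold change was 0.00 ± 0.15 (SE), with a 95% interval of −0.32 to 0.33 (edgeR adjusted p = 0.989). HSP90B1 shares exon sequence with C12orf73 on the opposite strand, and the library kit does not mark strand. The C12orf73 row had at most 473 counts in a library, against at least 58435 for HSP90B1.

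The measured J-domain partners of HSPA5, DNAJB9 and DNAJC3, both lay lower in knockdown, but only DNAJB9 passed the test. DNAJB9 (ERdj4), a J-domain protein that works with HSPA5 and is known to hold IRE1 in check, fell from 186 and 249 CPM in control to 101 and 92.2 CPM in knockdown libraries. The lowest control library was 1.84-fold above the highest knockdown library. DNAJB9 had a log2 fold change of −1.17 ± 0.18 (SE, n = 2 per group, edgeR adjusted p = 0.000884), which left 44.5% of control. It passed in all 10 alternatives, with values from −1.36 to −0.93. DNAJB9 overlaps exons of THAP5 and PNPLA8 on the opposite strand. The tested THAP5 row had at most 45 counts per library, and PNPLA8 was not analysed here.

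DNAJC3 (p58IPK), another J-domain partner of HSPA5, had 550 and 655 CPM in control and 508 and 410 CPM in knockdown libraries. The groups did not overlap, and the nearest libraries differed 1.08-fold. On the log2 scale they were apart by −0.39 ± 0.17 (SE, unadjusted p = 0.0351, edgeR adjusted p = 0.125). The authors' deposited table gives a q-value of 0.0395 for DNAJC3. Of 10 alternatives 2 passed for DNAJC3. Of the 4 fits without 1 library, only that without knockdown replicate 1 passed, and the log2 fold change ranged from −0.52 to −0.24.

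Within a library, DNAJC3 kept nearly the same ratio to HSPA5. Per base its counts were 0.0938 and 0.0861 times those of HSPA5 in control and 0.0949 and 0.0880 times in knockdown libraries. The values of the groups interleave. This pair was singled out after its values were seen.

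SDF2L1, a small protein found with HSPA5 and its J-domain partners, moved the other way. Its CPM were 91.4 and 147 in control and 173 and 239 in knockdown libraries. Both knockdown libraries were above both control libraries, but replicate 2 was the higher in each group, by 1.61-fold in control and 1.38-fold in knockdown. SDF2L1 had a log2 fold change of 0.79 ± 0.23 (SE, n = 2 per group, edgeR adjusted p = 0.0287), a rise of 1.72-fold, and its SE was the largest of the 9 genes. Without control replicate 1 it was 0.49 and did not pass (edgeR adjusted p = 0.249), and over 10 alternatives the adjusted p ranged from 6.13e-07 to 0.249. The authors' deposited table gives 0.81 and a q-value of 0.16, which does not pass.

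XBP1, the transcription factor of the IRE1 branch, rose in the row of the accession with the intron. It was counted 640 and 642 times in control and 1147 and 1378 times in knockdown. In CPM these were 40.4 and 39.7 against 75.8 and 80.2, and the nearest libraries of the groups differed 1.88-fold. XBP1 had a log2 fold change of 0.96 ± 0.19 (SE, n = 2 per group, edgeR adjusted p = 0.00316), a 1.95-fold rise that passed in all 10 alternatives with values from 0.93 to 1.04. The authors' deposited table gives 0.98 for this row. The sources used here do not say which reads were assigned to this accession, so neither the total XBP1 mRNA nor the share of it cut by IRE1 can be read from these counts.

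SEL1L, which anchors the ubiquitin ligase HRD1 in the degradation complex of the ER membrane, had 443 and 469 CPM in control and 477 and 328 CPM in knockdown libraries. The knockdown libraries differed 1.46-fold from each other and enclosed both controls. Knockdown minus control was −0.18 ± 0.18 (SE) on the log2 scale, with a 95% interval of −0.58 to 0.22 (edgeR adjusted p = 0.552). It was 0.07 without knockdown replicate 2. SEL1L was the only degradation gene of the 10 that could be measured, since HERPUD1 was not analysed here.

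**Figure D3:**
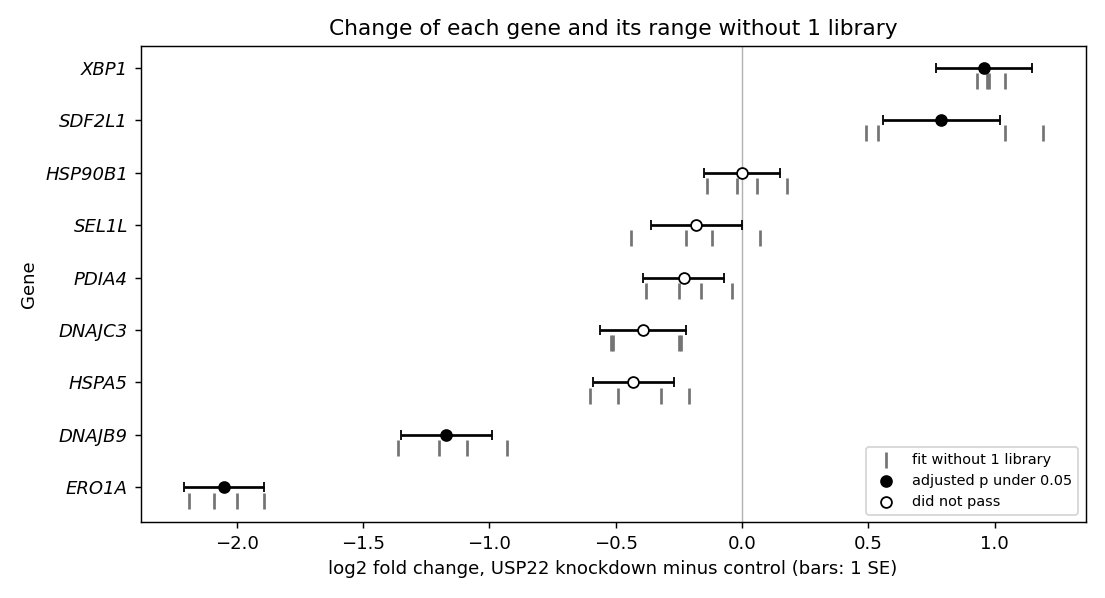
Log2 fold change of USP22 knockdown against control (x axis) for each of the 9 measured genes, with bars of 1 SE. Filled circles passed an adjusted p of 0.05, and grey ticks are the values of the 4 fits that each leave out 1 library. Only the ticks of HSP90B1 and SEL1L lie on both sides of 0. Those of ERO1A lie farthest from it (−2.19 to −1.89), and those of PDIA4 reach −0.04.

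Other genes of ER stress sensing, folding, degradation and translocation were counted in 6 lists that hold 92 genes, and 71 of them were tested. Among the 71, 7 genes fell, 2 genes rose and 62 stayed short of the threshold, which is 12.7% changed against 18.7% of all tested rows. Their median log2 fold change was −0.16. Some rows of genes with several accessions hold few counts, such as HYOU1, a large relative of HSPA5, at 17.7 and 21.9 CPM in control libraries, and such rows say little of the gene.

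Among the sensors and their activating proteases, 2 of 8 tested genes fell and none rose, with a median of 0.26. ERN1, which encodes IRE1, fell from 102 and 77.7 CPM in control to 51.2 and 41.7 CPM in knockdown libraries (−0.95 ± 0.20, edgeR adjusted p = 0.006), and the groups did not overlap. Without control replicate 1 the ERN1 call was lost (−0.74, edgeR adjusted p = 0.0787). CREB3, a membrane-bound transcription factor, fell as well (−0.49 ± 0.15, edgeR adjusted p = 0.041), but did not pass in any of the 4 fits without 1 library (up to 0.217). ATF6 did not pass, at 0.15 ± 0.19.

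Disulfide enzymes other than the members had 2 genes that fell and 1 that rose among 11 tested, with a median of −0.40. P4HB, the main protein disulfide isomerase, had 10645 and 10680 CPM in control and 5708 and 7011 CPM in knockdown libraries, and the groups were well apart. It fell to 59.6% of control (−0.75 ± 0.14, edgeR adjusted p = 0.0029) and passed in all 10 alternatives. QSOX1, a sulfhydryl oxidase, fell (−0.59 ± 0.17, edgeR adjusted p = 0.0272), with 1 of the 4 fits without 1 library past the threshold and the highest adjusted p at 0.238, without control replicate 2. TXNDC5, a thioredoxin-domain isomerase, rose from 128 and 146 to 200 and 291 CPM (0.84 ± 0.19, edgeR adjusted p = 0.00876). ERO1B, the paralog of ERO1A, had 109 and 138 CPM in control and 118 and 86.5 CPM in knockdown libraries, and these groups overlap.

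In the list of HSP70 partners, 1 of 8 tested genes rose and none fell, with a median of −0.16. That gene was CDNF, a secreted ER protein, at 5.81 and 4.33 CPM in control and 12.6 and 8.68 CPM in knockdown libraries (1.07 ± 0.33, edgeR adjusted p = 0.0406). Its call was lost without control replicate 2 (edgeR adjusted p = 0.155) and without knockdown replicate 1 (0.181). None of 10 tested lectin chaperones and glycan enzymes passed. The most abundant of them by CPM were CALR, the soluble lectin chaperone calreticulin (−0.30 ± 0.14, edgeR adjusted p = 0.162), and DDOST, a subunit of oligosaccharyltransferase (−0.02 ± 0.14, edgeR adjusted p = 0.957).

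Of 16 other tested genes of ER-associated degradation, 1 fell and none rose, and the median was −0.16. EDEM1, a lectin that passes misfolded glycoproteins on to degradation, fell from 496 and 552 CPM in control to 328 and 259 CPM in knockdown libraries (−0.84 ± 0.17, edgeR adjusted p = 0.0041). It passed in all 10 alternatives. SYVN1, which encodes HRD1, the ligase that SEL1L anchors, had a low row (10.7 and 12.2 CPM in control) that did not pass. Translocation genes had 2 that fell and none that rose among 18 tested, with a median of −0.00. These were SEC61G (−0.63 ± 0.20, edgeR adjusted p = 0.042) and SEC61A1 (−0.50 ± 0.15, edgeR adjusted p = 0.0309), both parts of the SEC61 channel. Neither passed without control replicate 1 or without control replicate 2, and SEC61G also did not pass without knockdown replicate 1. In the 4 fits without 1 library SEC61G ranged from −0.81 to −0.42 and SEC61A1 from −0.57 to −0.40.

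**Figure D4:**
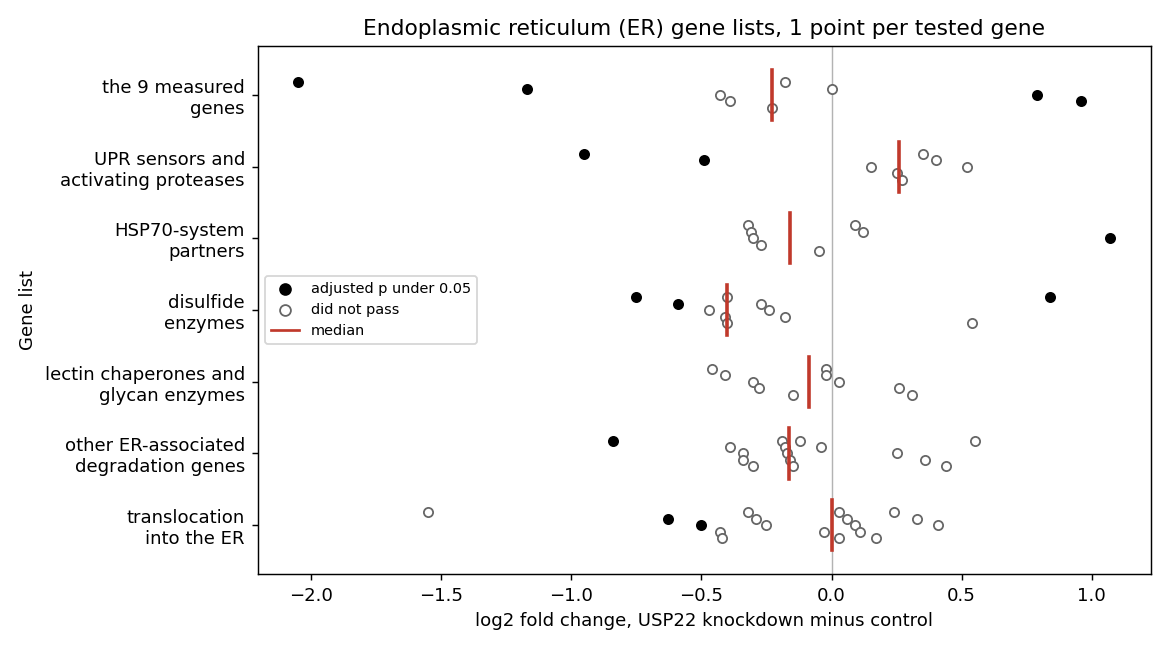
Log2 fold change of USP22 knockdown against control (x axis) of the 9 measured genes (top) and of the tested genes of 6 other ER lists, 1 point per gene, spread vertically only for legibility. Filled points passed an adjusted p of 0.05 and red lines are medians, which lie between −0.40 for disulfide enzymes and 0.26 for the sensors.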

How the data were processed

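The authors deposited 1 table of raw counts per RefSeq mRNA accession for 4 libraries, and the same table holds the authors' p-value, q-value and log2 fold change per row, per the file headers. Named in the submitters' processing notes are HISAT2 2.1.0, HTSeq, bcl2fastq and hg19. Neither the counting settings nor the tool behind the deposited p-values is given in the sources used here. Groups came from the sample titles. Per the labels' protocols the NEBNext Ultra RNA kit was used, and its libraries carry no strand.

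Rows were filtered with filterByExpr (minimum count 10), which left 12337 rows, and tested with edgeR 4.0.16 (quasi-likelihood test, TMM factors, no covariate) and Benjamini-Hochberg adjustment over all of them. The fitting code was tested on simulated data. Alternatives used limma 3.58.1 and DESeq2 1.42.0, among others. Promoters came from RefSeq (GRCh38.p14), and transcript lengths and the XBP1 models from GENCODE release 29. By accession, 30 symbols were replaced with current ones, 29 of them held as dates.

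The members and lists were chosen with earlier results of these data known. The text names all members and USP22. From each other list it names in each direction the 2 most changed genes past the threshold, or the 2 with the highest mean where none passed. THAP5, C12orf73, ATF6, ERO1B, SYVN1 and HYOU1 were named after their values were seen, as were the cell type markers.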

Additional observations from a re-analysis of the deposited data

How the results depend on the processing

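ERO1A, DNAJB9 and XBP1 kept direction and call in all 10 alternatives, and SDF2L1 in 9. With DESeq2 size factors, DESeq2, limma-voom, no filter beyond 1 count and rows summed per gene, 2 members rose and 2 to 3 fell. With the replicate number as a block 4 members fell. Of the genes in the 6 other lists 7 rose and 16 fell, and 1672 of all rows rose and 1859 fell. The labels do not tie equal numbers to a shared culture, and the deviations of equally numbered libraries correlated with r = 0.112 across rows. In fits that leave out 1 library, members that rose numbered 1 to 2 and members that fell 2 to 4. Genes of the other lists that rose numbered 1 to 5 and those that fell 2 to 7. Of all rows, 685 to 1340 rose and 1020 to 1297 fell. The cause was not tested, and such fits have fewer degrees of freedom, with a lone library assumed to vary like the other group. HSP90B1 was −0.01 with limma-voom and with the replicate block, and −0.14 to 0.18 without 1 library. In the same fits SEL1L ranged from −0.44 to 0.07 and DDOST from −0.04 to 0.05, and no direction is given for these 3 genes. The planned comparison of rows within a gene was not run, since each measured member had 1 row. HSPA5 and DNAJC3 passed with the block (−0.42, adjusted p = 0.00102, and −0.40, adjusted p = 0.0124).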
